A study of Mus musculus with 4 samples.

Results

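Fabp6-type enterocytes are absorptive cells of mouse intestinal organoids that hold more Fabp6 than Fabp1 RNA, and they made up 248 of the 5429 cells kept from 4 droplet libraries. Organoids were grown from crypts of 2 mice, 10 weeks old, of the genotype Cbl flox/flox; Cbl-b flox/flox; R26CreERT2. Knockout libraries 1 and 2 came from organoids replated with 400 nM 4-hydroxytamoxifen for 3 days, which switches on the Cre recombinase to delete Cbl and Cblb, and control libraries 1 and 2 from organoids of the same genotype without the compound. The floxed alleles and the Cre are thus carried by both groups, each number marks 1 mouse by the tag its deposited data carry, and each group has n = 2 libraries. The R26 locus is known for activity in nearly all cell types, so the deletion is not aimed at enterocytes, and 4-hydroxytamoxifen on cells without the floxed alleles is not analysed here. A cell counted as Fabp6-type when it had 500 or more detected genes, a summed level of Fabp2, Apoa1, Anpep and Sis of at least 1000 CPM, more UMIs of Fabp6 than of Fabp1, under 1000 CPM of the goblet genes Muc2, Fcgbp, Zg16 and Clca1, and under 1000 CPM of the fetal-like genes Ly6d and Anxa1. A UMI is 1 counted RNA molecule, and CPM are UMIs per 1000000 UMIs of the cell or, below, of all such cells of a library.

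Fabp6 encodes the ileal bile acid binding protein, a small carrier of bile acids in the cytosol of enterocytes of the distal small intestine. There bile acids enter from the lumen through the transporter Slc10a2, cross the cell bound to Fabp6 and leave at the basal side through the Slc51a and Slc51b dimer, while the bile acid receptor Nr1h4 switches on Fabp6 and the hormone gene Fgf15. Fabp1 encodes the liver-type fatty acid binding protein, which is typical of the proximal small intestine, where fat, sugar and most drugs are taken up. Cbl and Cblb encode enzymes that attach ubiquitin to growth factor receptors, EGFR among them, once these are active, and so send them for breakdown.

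The promoter windows of both defining genes are printed because the cells were chosen by these genes, with matches to the searched motifs in capitals. Each window runs from 250 bases before to 50 bases after the RefSeq start on the gene's strand (GRCm38.p6, 5′ to 3′). The motifs were AGGTCA, the half-site of many nuclear receptors, GTTAAT, the half-site of HNF1, TTTATG, bound by Cdx factors, AGATAA, bound by GATA factors, and the TATA box TATAAA, each on both strands. Fabp6 lies on the minus strand at chr11:43601513-43601812 and Fabp1 on the plus strand at chr6:71199629-71199928.
Fabp6: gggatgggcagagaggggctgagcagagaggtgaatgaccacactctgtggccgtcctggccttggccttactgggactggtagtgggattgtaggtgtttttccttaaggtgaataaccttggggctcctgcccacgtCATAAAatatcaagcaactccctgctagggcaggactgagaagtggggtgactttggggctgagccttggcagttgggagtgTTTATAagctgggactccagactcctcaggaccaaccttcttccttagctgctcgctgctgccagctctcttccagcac
Fabp1: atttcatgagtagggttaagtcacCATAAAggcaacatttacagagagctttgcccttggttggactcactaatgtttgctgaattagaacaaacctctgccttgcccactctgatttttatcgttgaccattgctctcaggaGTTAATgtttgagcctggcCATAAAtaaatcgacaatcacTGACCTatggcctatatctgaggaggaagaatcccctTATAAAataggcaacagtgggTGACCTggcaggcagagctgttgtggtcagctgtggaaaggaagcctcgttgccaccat
The Fabp6 window held CATAAA, the reverse letters of the Cdx motif, at −111 and a reverse TATA box at −29 from the start, and no AGGTCA. The Fabp1 window held TGACCT, the reverse half-site, at −67 and −9, GTTAAT at −107, CATAAA at −226 and −88 and TATAAA at −30. Of 32851 mouse windows of this length, 16.3% held the nuclear receptor half-site, 11.9% the Cdx motif, 7.10% the HNF1 half-site, 11.2% the GATA motif and 13.6% the TATA box. The matches describe letters in these windows only.

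Knockouts 1 and 2 held 37 and 111 Fabp6-type cells, and controls 1 and 2 held 39 and 61. Their summed depth was 391213 and 1611344 UMIs in the knockouts, against 869548 and 1443840 UMIs in the controls, so knockout 1 gave the coarsest values. The median cell had 8425 and 13514 UMIs in knockouts 1 and 2, against 15067 and 18150 in controls 1 and 2. No barcode of a Fabp6-type cell was shared between libraries, and 2 barcodes of other kept cells were. Cbl had 15.3 and 10.6 CPM in knockout cells of the type and 23.0 and 20.1 CPM in control cells, from 6 and 17 UMIs against 20 and 29. The values of the groups did not overlap, but the 95% counting intervals did: they ran over 5.63 to 33.4 and 6.15 to 16.9 CPM in knockouts 1 and 2, against 14 to 35.5 and 13.5 to 28.8 CPM in controls 1 and 2. Cblb had 2 and 0 UMIs in the knockouts and 7 and 4 UMIs in the controls, and 3 UMIs in knockout 2 would be 1.86 CPM. The fold change of Cbl was −0.75 ± 0.45 on the log2 scale (edgeR quasi-likelihood test with the mouse as a block, adjusted p = 0.902), and Cblb was too low to be tested. At these counts a loss of either transcript was not detectable in the type alone, and the position of the sequenced tags relative to the deleted exons is not given in the sources used here.

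The cells spanned a wide range of Fabp6. The median Fabp6-type cell held 12 and 39 Fabp6 UMIs in knockouts 1 and 2 and 20 and 17 in controls 1 and 2, and the highest cell of each library held between 1151 and 1693. At the low end, 31 of the 248 cells had a single Fabp6 UMI and 89 had under 10, while 172 had no Fabp1 UMI at all. A lead of 1 UMI over Fabp1 put 34 cells into the type, and a lead of 1 UMI the other way put 56 of 485 cells into the Fabp1-type. For the enterocyte gate, 16 members lay between 1000 and 1500 CPM, and 24 cells with more Fabp6 than Fabp1 stayed outside at 500 to 1000 CPM. Cells with 10000 CPM or more of the Paneth gene Lyz1 should lack Fabp6, and those below the enterocyte gate of 1000 CPM gave the background. Of these, 1.60% and 8.40% had a Fabp6 UMI in knockouts 1 and 2 and 7.91% and 11.9% in controls 1 and 2, at median depths of 14844, 17891.5, 20744 and 33482 UMIs in the same order. Summed over those Paneth gene-rich cells, Fabp6 was at 1.08 and 4.83 CPM in the knockouts and 3.56 and 3.52 CPM in the controls, against 4075 CPM or more in Fabp6-type cells of every library. Fabp6-type cells held 91.5% and 94.6% of all Fabp6 UMIs of the knockouts and 92.7% and 97.6% of those of the controls.

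**Figure D1:**
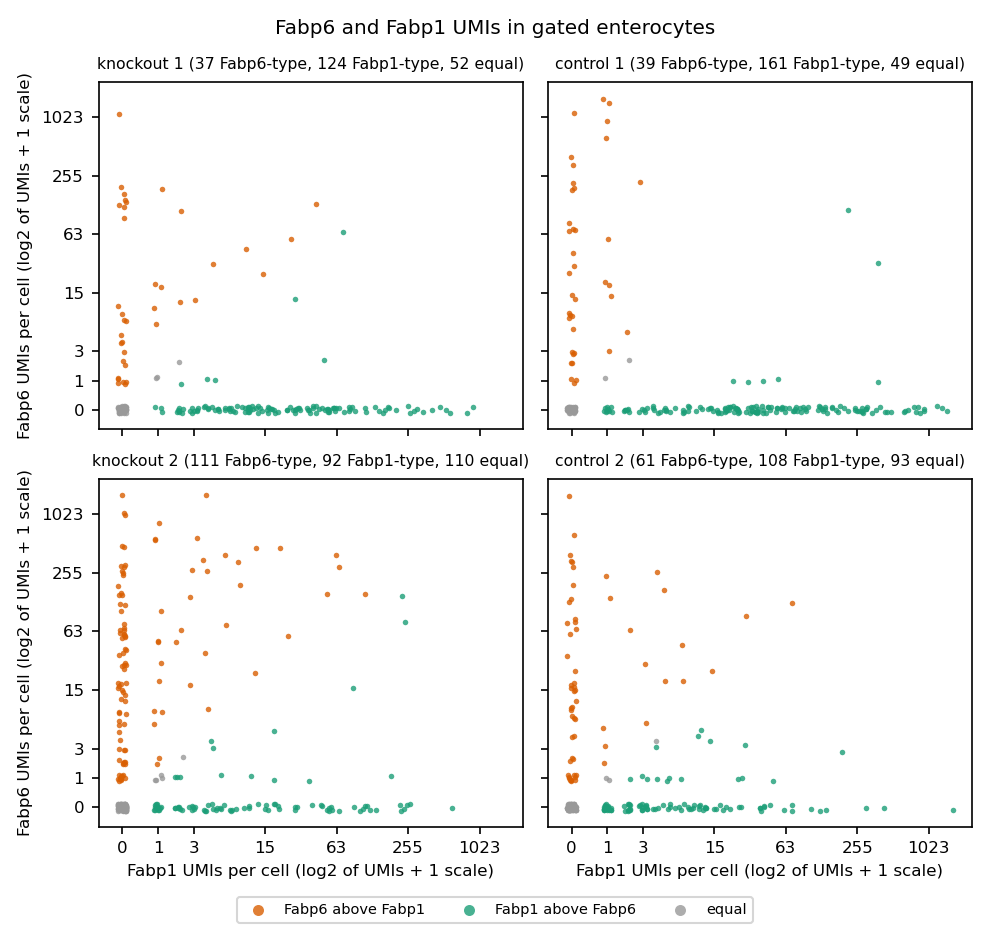
UMIs of Fabp6 (vertical) and Fabp1 (horizontal) in each gated enterocyte, on axes of log2 of UMIs plus 1, with knockout libraries in the left column and control libraries in the right. Most cells sit on an axis, with 172 of the 248 Fabp6-type cells at 0 Fabp1 UMIs, and the highest Fabp6 value of a library lies between 1151 and 1693 UMIs.

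Fabp6-type cells were 2.24% and 5.74% of kept cells in knockouts 1 and 2, with exact 95% intervals of 1.58 to 3.08 and 4.75 to 6.87, and 3.36% and 8.89% in controls 1 and 2, with intervals of 2.40 to 4.57 and 6.87 to 11.3. The groups overlapped, and mouse 2 was above mouse 1 in both. The mean was 3.99% ± 2.47 in knockouts and 6.13% ± 3.91 in controls (SD, n = 2 each), a difference of −2.13 percentage points with a two-sided exact permutation p = 0.667. Within mice the difference was −1.12 points in mouse 1 and −3.15 points in mouse 2. With 2 libraries against 2 the smallest p that test can give is 0.333, and such intervals cover counting error only.

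Among gated enterocytes, which are all cells that meet the gate and both exclusions, the share of the Fabp6-type ran the other way within each mouse. It was 17.4% and 35.5% in knockouts 1 and 2 (37 of 213 and 111 of 313 cells), with intervals of 12.5 to 23.1 and 30.2 to 41.0. In controls 1 and 2 it was 15.7% and 23.3% (39 of 249 and 61 of 262 cells), with intervals of 11.4 to 20.8 and 18.3 to 28.9. Knockout 1 lay between the controls, so the groups overlapped, and knockout 2 was the highest library. The mean was 26.4% ± 12.8 in knockouts and 19.5% ± 5.39 in controls (SD, n = 2 each), a difference of 6.94 points (two-sided exact permutation p = 0.667), made of 1.71 points in mouse 1 and 12.2 points in mouse 2. Gated enterocytes as a whole were 12.9% and 16.2% of kept cells in the knockouts and 21.5% and 38.2% in the controls. Without knockout 2 the difference among gated enterocytes was −2.10 points, and without control 2 the difference among kept cells was 0.63 points. With every cell thinned to 5000 UMIs and shallower cells left out, the share among gated enterocytes was 24.2% and 40.3% in knockouts and 18.9% and 24.0% in controls, a difference of 10.8 points (two-sided exact permutation p = 0.333, the smallest the design allows). With the gate at 500 CPM that difference was 2.66 points (exact permutation p = 1.00). With 10 or more UMIs of the leading Fabp gene, a setting chosen after seeing the data, the difference among kept cells was −1.0 points (exact permutation p = 0.667). Cells with no UMI of either gene numbered 291 of the 1037 gated cells and belong to neither type.

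**Figure D2:**
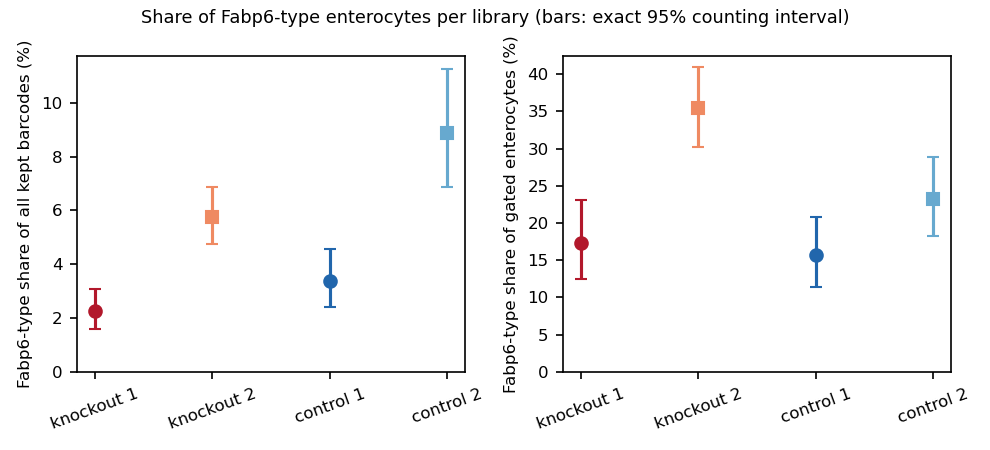
Share of Fabp6-type enterocytes in each library, as a percentage of kept cells (left panel) and of gated enterocytes (right panel), with exact 95% intervals for counting error as bars. Knockout 2 is the highest library among gated enterocytes at 35.5%, and control 2 the highest among kept cells at 8.89%.

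Because the cells were chosen by Fabp6 over Fabp1, the contrast with the 485 Fabp1-type cells of the same libraries is a description with no test. Fabp6 marked the cells in every library, whereas of the other markers, Tmigd1, Slc13a1 and Anpep, none was clearly higher than in the Fabp1-type in both mice. Tmigd1, an adhesion molecule of the brush border, had 1362 and 1704 CPM in Fabp6-type cells of knockouts 1 and 2 and 945 and 1373 CPM in those of controls 1 and 2. Fabp1-type cells had 327 and 1434 CPM in the knockouts and 209 and 1604 CPM in the controls. Tmigd1 was thus several times higher in Fabp6-type cells of mouse 1 and about level in mouse 2. Slc13a1, a sodium and sulphate transporter, had 248 and 465 CPM in knockout and 388 and 407 CPM in control Fabp6-type cells, against 127 and 421 CPM in knockout and 100 and 472 CPM in control Fabp1-type cells. Anpep, a brush border peptidase that the gate itself uses, had 1056 and 1138 CPM in knockout and 629 and 1428 CPM in control Fabp6-type cells. Fabp1-type cells had 600 and 1039 CPM in the knockouts and 702 and 2427 CPM in the controls. Anpep was thus higher in the Fabp6-type in both knockout libraries and lower in both control libraries.

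Slc10a2, the apical bile acid importer, had 590 and 891 CPM in knockout and 373 and 579 CPM in control Fabp6-type cells, against 203 and 575 CPM in knockout and 70.5 and 488 CPM in control Fabp1-type cells. Slc51a, a subunit of the basal exporter, had 808 and 859 CPM in knockout and 754 and 828 CPM in control Fabp6-type cells, against 283 and 578 CPM in knockout and 281 and 587 CPM in control Fabp1-type cells. Both were higher in the Fabp6-type in all 4 libraries. Its partner Slc51b was also higher in all 4, with 348 and 503 CPM in knockout and 238 and 436 CPM in control Fabp6-type cells, and so was the receptor gene Nr1h4, with 112 and 123 CPM in knockout and 146 and 143 CPM in control Fabp6-type cells. Fgf15, the hormone that bile acids induce in the ileum, had 0 and 18 UMIs in the knockouts and 17 and 23 UMIs in the controls. This is 0 and 11.2 CPM against 19.6 and 15.9 CPM, and 3 UMIs in knockout 1 would be 7.67 CPM. The exporters Abcc2 and Abcc3 were lower in the Fabp6-type in all 4 libraries, and no UMI of the bile acid receptor Gpbar1 was found in either type. Of the vitamin B12 receptor pair, Cubn had 169 and 133 CPM in knockout and 138 and 201 CPM in control Fabp6-type cells, and it was higher than in the Fabp1-type in 3 of the 4 libraries.

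Of 2519 genes with at least 50 CPM in all 4 libraries in 1 type or the other, 472 were higher and 457 lower in the Fabp6-type in every library, and only 2 and 11 of these by more than 2-fold in every library. After Fabp6 the largest mean ratios among the higher genes were those of Suox, sulphite oxidase of sulphur amino acid breakdown, and Mgat4c, a glycosyltransferase. Suox had 94.6 and 117 CPM in knockout and 94.3 and 53.3 CPM in control Fabp6-type cells, against 10.9 and 39.4 CPM in knockout and 1.25 and 29.2 CPM in control Fabp1-type cells. They were followed by the epithelial transcription factor Ehf, the defensin Defb37, Fgfbp1, which carries fibroblast growth factors, the peptide hormone precursor Edn1, and Reg3g, an antimicrobial lectin. Reg3g had 1199 and 694 CPM in knockout and 881 and 587 CPM in control Fabp6-type cells, against 279 and 316 CPM in knockout and 344 and 373 CPM in control Fabp1-type cells.

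Most of the 15 lower genes with the largest mean ratios encode enzymes and carriers of drug, fat and retinoid handling. Gstm1, a glutathione transferase, had 291 and 1177 CPM in knockout and 439 and 1009 CPM in control Fabp6-type cells, against 3162 and 3138 CPM in knockout and 4927 and 2141 CPM in control Fabp1-type cells. Apoa4, an apolipoprotein of chylomicrons, had 1201 and 946 CPM in knockout and 520 and 765 CPM in control Fabp6-type cells, against 5159 and 2994 CPM in knockout and 3672 and 1820 CPM in control Fabp1-type cells. Rbp2, the carrier of retinol in enterocytes, had 1802 and 2822 CPM in knockout and 718 and 2205 CPM in control Fabp6-type cells, against 4780 and 7191 CPM in knockout and 5929 and 5075 CPM in control Fabp1-type cells. In all 3 genes each Fabp6-type value lay below the Fabp1-type value of its own library. Ephx1, Gstm4, Cyp3a11, Cyp2c29, Cyp2b10 and Adh1, enzymes of drug or alcohol metabolism, were lower in all 4 libraries too. So were the antimicrobial peptide gene Leap2 and the sugar importer Slc5a1. Gata4, a transcription factor of the proximal small intestine, had 15.3 and 8.07 CPM in knockout and 10.4 and 12.5 CPM in control Fabp6-type cells, and it was lower than in the Fabp1-type in each library. Counting of near-identical copies such as the Gstm, Cyp2c, Cyp3a, Reg3 and Sprr2 genes is uncertain, since reads could be split between copies.

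**Figure D3:**
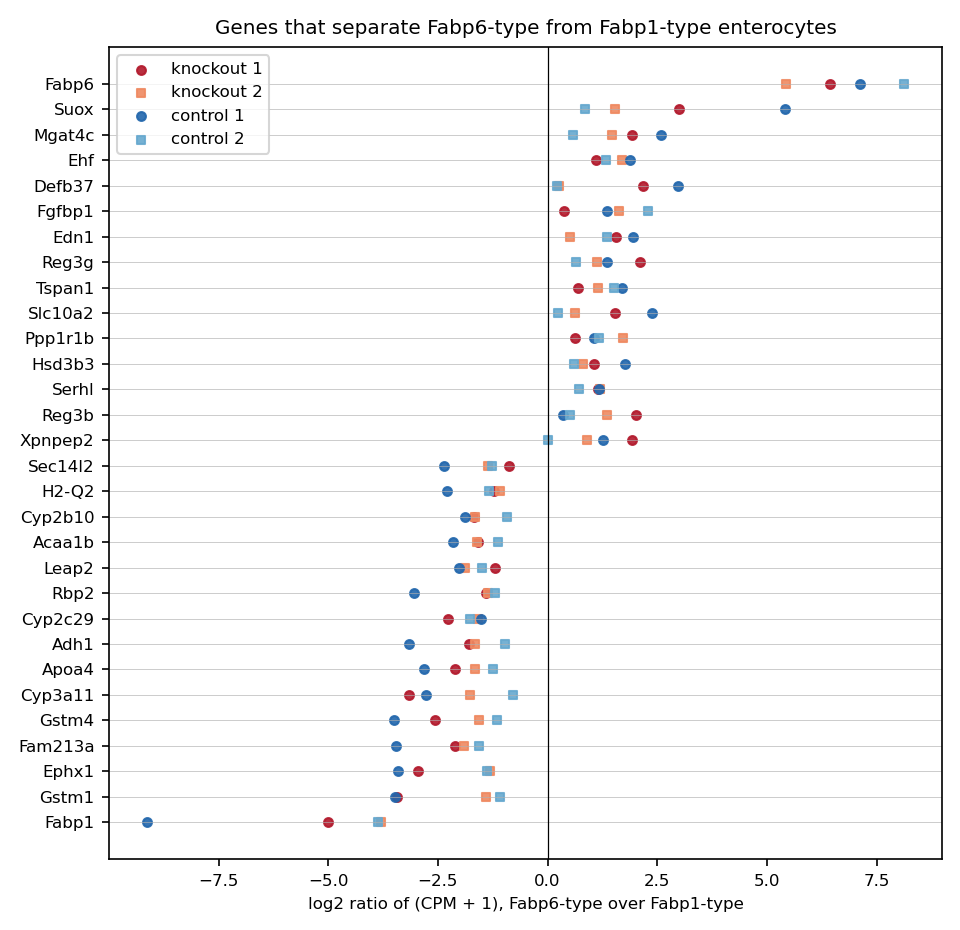
Log2 ratio of CPM plus 1 in Fabp6-type over Fabp1-type enterocytes of the same library, for the 15 genes each way with the largest mean ratio, with knockouts in red shades and controls in blue shades, circles for mouse 1 and squares for mouse 2. Fabp6 and Fabp1 were used by the rule, and for most other genes control 1 lies farther from 0 than control 2.

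Across single gated enterocytes the genes that varied most closely with Fabp6 held transporters of bile acids. Over 2471 genes, the mean of the within-library Spearman correlations was 0.415 for Mgat4c, 0.351 for Slc51a, 0.340 for Slc10a2, 0.332 for Gm21885 and 0.327 for Ehf. Next came the membrane glutathione transferase Mgst1 at 0.326, Lgals4 at 0.316 and Tmigd1 at 0.309. Slc51a had coefficients of 0.361 and 0.431 in knockouts 1 and 2 and 0.415 and 0.199 in controls 1 and 2, and Fabp1 had −0.354 and −0.0875 in the knockouts and −0.401 and −0.136 in the controls. Control 2 gave the lowest coefficient for each of Mgat4c, Slc51a, Slc10a2 and Tmigd1. These are descriptions over 213 and 313 knockout cells and 249 and 262 control cells, which share library and differ in depth.

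Markers of other cell types were low in the Fabp6-type. For the goblet markers this was largely fixed in advance, since the rule capped Muc2, Fcgbp, Zg16 and Clca1, all of them but Tff3. The summed level of 4 Paneth markers was 204 and 195 CPM in knockouts and 261 and 82.4 CPM in controls, that of 4 cycling markers 30.7 and 58.3 CPM in knockouts and 65.6 and 18.7 CPM in controls, and that of 5 goblet markers 58.8 and 135 CPM in knockouts and 85.1 and 58.9 CPM in controls. The 4 stem markers summed to 46.0 and 29.8 CPM in knockouts and 273 and 3.46 CPM in controls, and in control 1 most of this was Olfm4 in 1 cell. Enteroendocrine markers (Chga, Chgb, Neurod1 and Tac1) summed to 2.56 and 328 CPM in knockouts and 2.30 and 0.69 CPM in controls, and 2 cells of knockout 2 held 1000 CPM or more of them. All 4 mesenchymal, all 3 tuft and both erythroid markers were at 0 UMIs in every library.

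The question was which genes differ in Fabp6-type enterocytes after Cbl and Cblb deletion. For each library the UMIs of these cells were added up per gene and tested with the edgeR quasi-likelihood test over 7628 genes, at a Benjamini-Hochberg adjusted p under 0.05. In such sums a gene's lower level in every cell and fewer cells expressing it cannot be told apart. The p-values rest on 2 organoid cultures per group, with the spread estimated with information from all genes. With the group as the only term, 1 gene rose (Oasl1, 0.0131% of the genes tested) and 3 fell (Cyr61, Edn1 and Ccl20, 0.0393%), together 0.0524%, and 464 genes had an unadjusted p under 0.05. With the mouse as a block, since each mouse gave 1 library of each group, 41 genes rose (0.537% of the genes tested) and 10 fell (0.131%), together 0.669%, and all 4 genes of the first fit were among them. Unless the group alone is named, log2 fold changes below are knockout over control ± SE from the fit with the block, and rose and fell refer to it. Of the 51 genes, 47 had the same direction in both mice, which a fit that pairs by mouse favours (51.5% of all genes tested), and in 43 the groups did not overlap (35.1% of all genes tested). The calls rest on the same values, so these counts are a description. The fit with the block leaves 1 residual degree of freedom, so its p-values draw on other genes and do not show that both mice agree. Car1 was called lower (edgeR adjusted p = 9.99e-07), with log2 steps of 1.83 in mouse 1 and −3.44 in mouse 2. In control 2, 1 cell held 97.8% of the Car1 UMIs. The genes Fabp1 and Ly6d are among the 51 but were used by the rule, so their values carry no test.

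DESeq2 with the block called 7 of the 41 rising and none of the falling genes, and with the group alone it called 4 genes higher and 2 lower. When control 1 was left out, the fit with the group alone called no gene, against 74 higher and 28 lower without knockout 1. The numbers of genes called thus rest on single libraries. Of 17 named genes 1 changed its direction in an alternative, Cyp3a11. These genes were chosen because they were called, all but Ccl20 with the same direction in both mice as a condition. A stable direction over refits of the same libraries was thus largely fixed in advance.

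Oasl1, an interferon-inducible relative of the oligoadenylate synthases, was the only gene that rose in both fits. It had 125 and 176 CPM in knockouts 1 and 2, against 29.9 and 49.9 CPM in controls 1 and 2. Both knockouts were above both controls, and the counting intervals of the groups were apart (92.7 to 166 and 156 to 197 CPM in knockouts, 19.5 to 43.8 and 39.0 to 62.8 CPM in controls). The log2 fold change was 1.96 ± 0.27 (edgeR adjusted p = 9.38e-06, and 0.0183 with the group alone). Oasl1 UMIs were found in 13 of 37 and 60 of 111 knockout cells and in 10 of 39 and 24 of 61 control cells. Oasl1 lies on GRCm38 chromosome 5 from 114923240 to 114937915. Of the 5 tested genes of a list of interferon response none passed the test, and Isg15 had 10.2 and 46.5 CPM in knockouts and 16.1 and 9.0 CPM in controls.

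Several genes that rose act in oxygen sensing, glucose uptake, lactate export or mitochondria. They were picked out after their values were seen and were not tested as a group. Egln3, a prolyl hydroxylase that marks hypoxia-inducible factors for removal, had 263 and 198 CPM in knockouts and 102 and 46.4 CPM in controls, a log2 fold change of 1.78 ± 0.25 (edgeR adjusted p = 1.34e-05, and 0.0745 with the group alone). Slc16a3, a lactate exporter, had 125 and 70.7 CPM in knockouts and 39.1 and 9.0 CPM in controls (2.29 ± 0.33). Slc2a1, a glucose importer, had 48.6 and 51.5 CPM in knockouts and 33.4 and 8.31 CPM in controls (1.63 ± 0.40). In each of these genes both knockouts lay above both controls, and the step was larger in mouse 2 than in mouse 1. Ankrd37, an ankyrin repeat protein that hypoxia induces, had 105 and 41.6 CPM in knockouts and 47.2 and 2.08 CPM in controls (2.12 ± 0.40), so knockout 2 lay below control 1 and the groups overlapped. Fam162a, a mitochondrial protein, had 585 and 907 CPM in knockouts and 312 and 246 CPM in controls (1.46 ± 0.26). Bnip3, which acts in the removal of mitochondria, had 97.1 and 60.8 CPM in knockouts and 44.9 and 18 CPM in controls (1.48 ± 0.31). Egln1, a second prolyl hydroxylase of the same family, Ero1l, an oxidase of protein folding, and Hk1, a hexokinase, rose as well, with log2 fold changes of 1.13 ± 0.29, 1.09 ± 0.24 and 2.44 ± 0.54. With the group alone none of the 9 genes passed the edgeR test, where their adjusted p lay between 0.0745 and 0.760, while DESeq2 called Egln3 (adjusted p = 0.0406) and Fam162a (adjusted p = 0.0143).

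The promoter windows of 3 of these genes are printed because the genes moved together, with ACGTG, the core letters of the hypoxia response element, or its reverse CACGT in capitals. The windows are RefSeq sequence of GRCm38.p6, 5′ to 3′, Egln3 at chr12:54203825-54204124 and Ankrd37 at chr8:45999801-46000100 on the minus strand and Slc16a3 at chr11:120948817-120949116 on the plus strand.
Egln3: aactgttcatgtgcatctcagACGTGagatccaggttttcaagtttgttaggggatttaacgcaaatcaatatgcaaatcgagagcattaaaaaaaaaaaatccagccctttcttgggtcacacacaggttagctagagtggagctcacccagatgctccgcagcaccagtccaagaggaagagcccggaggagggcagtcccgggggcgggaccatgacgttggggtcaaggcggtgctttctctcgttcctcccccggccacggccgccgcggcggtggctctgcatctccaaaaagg
Ankrd37: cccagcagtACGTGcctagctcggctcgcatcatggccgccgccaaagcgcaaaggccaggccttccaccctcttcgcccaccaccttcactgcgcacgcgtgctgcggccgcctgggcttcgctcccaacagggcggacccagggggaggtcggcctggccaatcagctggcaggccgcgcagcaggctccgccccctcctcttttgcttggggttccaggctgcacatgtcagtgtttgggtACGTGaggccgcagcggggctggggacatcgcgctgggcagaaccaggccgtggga
Slc16a3: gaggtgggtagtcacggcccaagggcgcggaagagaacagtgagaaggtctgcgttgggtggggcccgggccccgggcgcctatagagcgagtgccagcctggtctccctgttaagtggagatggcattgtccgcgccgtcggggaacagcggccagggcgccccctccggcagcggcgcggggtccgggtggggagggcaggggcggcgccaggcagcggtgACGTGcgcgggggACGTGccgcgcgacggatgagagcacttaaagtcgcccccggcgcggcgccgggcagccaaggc
The matches lay at −229 in Egln3, at −241 and −6 in Ankrd37 and at −27 and −14 in Slc16a3. Windows of Bnip3, Fam162a, Slc2a1 and Egln1 held the letters too, as did 1 of 2 windows of Hk1, and no window was found for Ero1l. Of the 41 rising genes 31 had a window, and 17 of these (54.8%) held ACGTG on either strand in a window, against 2 of 7 falling genes with a window, 31.0% of 6089 tested genes and 21.8% of all 27025 genes with a window. The 17 include the genes named here that held the letters, and these had been picked after their values were seen. The shares were not compared by a test. A match is a description of letters and shows no binding.

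Among the largest rises were also genes of surface proteins and small secreted or mitochondrial proteins. Sprr2a3, a cornified envelope protein, had 729 and 539 CPM in knockouts and 277 and 41.6 CPM in controls (log2 fold change 2.52 ± 0.32, edgeR adjusted p = 2.58e-06, and 0.263 with the group alone). Sprr1a, of the same protein class, had 166 and 103 CPM in knockouts and 19.6 and 56.1 CPM in controls (1.77 ± 0.32), and in knockout 1 a single cell held 50.8% of its UMIs. For both genes the knockouts lay above the controls. AA467197, whose human counterpart C15orf48 encodes a mitochondrial protein, had 417 and 143 CPM in knockouts and 116 and 28.4 CPM in controls (2.11 ± 0.25). 2610528A11Rik, whose human counterpart GPR15LG encodes a ligand of the receptor GPR15, had 243 and 149 CPM in knockouts and 141 and 5.54 CPM in controls (2.22 ± 0.39), so that knockout 2 and control 1 were nearly level. Akr1b8, an aldo-keto reductase, had 23.0 and 103 CPM in knockouts and 23.0 and 18 CPM in controls (1.74 ± 0.39), and its rise rested on mouse 2 alone.

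Further genes that rose had other roles. Scd1, the desaturase that makes oleic acid, had 642 and 811 CPM in knockouts and 173 and 344 CPM in controls (1.59 ± 0.25). Tm4sf4, a membrane protein of the tetraspanin-like L6 family, had 813 and 2338 CPM in knockouts and 284 and 940 CPM in controls (1.46 ± 0.26), with knockout 1 below control 2. Gch1, the first enzyme of tetrahydrobiopterin synthesis, had 194 and 294 CPM in knockouts and 112 and 127 CPM in controls (1.07 ± 0.24). Scd1 and Gch1 separated the groups, and Tm4sf4 did not. The phosphate importer Slc20a1, at 58.8 and 66.4 CPM in knockouts and 18.4 and 28.4 CPM in controls, was the 1 gene of 14 tested ion, sulphate and phosphate transport genes that rose (1.44 ± 0.33). The membrane carbonic anhydrase Car4 had 25.6 and 53.4 CPM in knockouts and 1.15 and 11.1 CPM in controls (2.67 ± 0.47), from 10 and 86 UMIs against 1 and 16.

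Fewer genes fell. Cyr61, a matrix protein induced by growth factors and by stretch, had 23.0 and 13.0 CPM in knockouts and 74.8 and 73.4 CPM in controls, from 9 and 21 UMIs against 65 and 106. Its log2 fold change was −2.14 ± 0.35 (edgeR adjusted p = 0.000123, and 0.0183 with the group alone). Edn1, the precursor of endothelin-1, had 81.8 and 56.5 CPM in knockouts and 255 and 173 CPM in controls (−1.58 ± 0.25, edgeR adjusted p = 9.38e-05, and 0.0487 with the group alone). Both genes were lower in each knockout than in each control, and their steps within mice were −1.66 and −2.41 for Cyr61 and −1.63 and −1.60 for Edn1. The transcription factor genes Fos and Egr1, which growth factor signalling switches on within minutes, had 297 and 177 against 462 and 516 CPM for Fos (−1.07 ± 0.25) and 161 and 112 against 262 and 271 CPM for Egr1 (−0.96 ± 0.24), knockouts before controls. Egr2, a related factor, fell too (−1.73 ± 0.44), from 5 and 13 UMIs in knockouts against 39 and 40 in controls. Of 14 tested immediate early and heat shock genes 2 fell, where 0.131% of all genes tested fell, and none rose. Jun had 368 and 251 CPM in knockouts and 455 and 549 CPM in controls (−0.69 ± 0.25, edgeR adjusted p = 0.386).

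Ccl20, a chemokine of the follicle-associated epithelium, fell in both fits but rested on few cells. It had 5.11 and 4.34 CPM in knockouts and 67.9 and 33.2 CPM in controls (−3.11 ± 0.48), found in 2 and 4 knockout cells and in 6 and 5 control cells, and 1 cell held 84.7% of its UMIs in control 1 and 1 cell 56.2% in control 2. S100g, the calcium binding protein of vitamin D-driven calcium uptake, had 153 and 681 CPM in knockouts and 475 and 1430 CPM in controls (−1.27 ± 0.26). Cyp3a11, a drug-oxidising cytochrome, had 38.3 and 98.7 CPM in knockouts and 66.7 and 294 CPM in controls (−1.29 ± 0.27), and without control 2 the fit with the group alone gave 0.23. For S100g and Cyp3a11 the mice differed more than the groups, so the groups overlapped, while each knockout lay below the control of its mouse. In 9 of the 51 genes 1 cell held over 50% of the UMIs in a library of the higher group, and in the other 42 (35 higher and 7 lower) no cell did. Agr2, a disulphide isomerase of goblet cells, at 12.8 and 197 CPM in knockouts and 15 and 6.93 CPM in controls, and Sct, the secretin gene, at 7.67 and 147 CPM in knockouts and 17.3 and 22.2 CPM in controls, were such cases: 1 cell of knockout 2 held 78.3% of the Agr2 UMIs and 85.2% of the Sct UMIs of that library. When cells with enteroendocrine markers were left out, 50 of the 51 genes were called again.

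**Figure D4:**
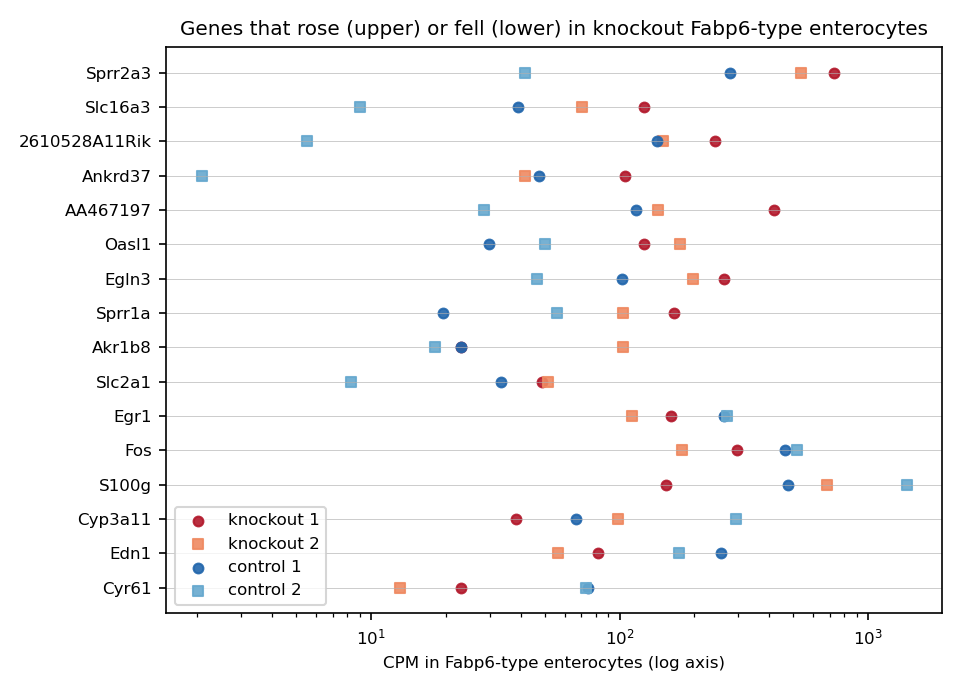
CPM in Fabp6-type enterocytes of each library, on a log axis, for the 10 genes with the largest rise and the 6 genes with a fall that passed the fit with the block at an average log2 CPM of at least 5 and moved alike in both mice. Knockouts are in red shades, controls in blue shades, circles mark mouse 1 and squares mouse 2; Oasl1, Egln3 and Cyr61 separate the groups, and Akr1b8 does not differ within mouse 1.

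The gene lists held genes of absorption, position along the villus, signalling and other cell types, and 0.669% of all genes tested were called. Of the 7628 genes tested, 3762 had a positive fold change. The median cell's summed level of the gate genes was 13779 and 23082 CPM in knockouts 1 and 2. In controls 1 and 2 it was 7675 and 28386 CPM, so it was lowest in control 1. The part of this in the list values was not tested. Among genes that define the absorptive cell, no list had more than 1 called member. Bile acid handling had 7 tested members besides Fabp6, none called, with a median log2 fold change of 0.12 against −0.01 over all genes tested. Slc10a2 was higher in both knockouts than in both controls, at 0.69 ± 0.24 (edgeR adjusted p = 0.376), Slc51a was at 0.12 ± 0.24 and Fgf15 at −1.06 ± 0.55, and Fabp6, which the rule used, had 7247 and 10523 CPM in knockouts and 9036 and 4075 CPM in controls. Brush border hydrolases had 13 tested members besides the gate genes Anpep and Sis, none called, with a median of −0.07. Mgam, a maltase, had 1258 and 1074 CPM in knockouts and 738 and 1051 CPM in controls (0.44 ± 0.26, edgeR adjusted p = 0.888). Microvillus adhesion and cytoskeleton genes had 17 tested members, none called, with a median of 0.32 and 15 positive, and their structural protein villin, Vil1, had 762 and 810 CPM in knockouts and 501 and 834 CPM in controls.

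Nutrient lists were similar. Leaving out Fabp1, Fabp2 and Apoa1, which the rule used, none of 14 tested lipid absorption genes was called, 13 had a positive fold change and the median was 0.42. Their summed level was 6539 and 5793 CPM in knockouts and 3661 and 5546 CPM in controls, with control 1 the lowest. Of 25 tested xenobiotic and retinoid genes 1 fell (Cyp3a11), of 7 sugar uptake genes 1 rose (Slc2a1), and of 11 amino acid and peptide transport genes and 4 vitamin B12 genes none was called. Of 7 tested villus tip genes all 7 were positive with a median of 0.63, and 1 rose: Pmp22, a membrane protein first known from myelin, had 156 and 264 CPM in knockouts and 51.8 and 103 CPM in controls (1.5 ± 0.25, edgeR adjusted p = 0.000183, and 0.111 with the group alone). Krt20, a keratin of mature villus cells, had 527 and 676 CPM in knockouts and 342 and 459 CPM in controls (0.64 ± 0.24, edgeR adjusted p = 0.459). Of 10 tested genes of the villus bottom none was called, and Pigr, which carries IgA across the cell, had 396 and 226 CPM in knockouts and 562 and 573 CPM in controls (−0.89 ± 0.25, edgeR adjusted p = 0.0873).

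Signalling and transcription factor lists held few calls. None of 23 tested intestinal transcription factors, 8 EGFR family and ligand genes, 12 p53 targets, 4 BMP response genes or 3 metallothioneins was called. Of 8 tested ERK feedback genes 1 fell, the Egr1 already given, and Areg, an EGFR ligand, had 343 and 473 CPM in knockouts and 277 and 442 CPM in controls. Cdkn1a, the cell cycle inhibitor p21, had 578 and 594 CPM in knockouts and 374 and 394 CPM in controls (0.66 ± 0.24, edgeR adjusted p = 0.415), without overlap of the groups. Cblc, the third family member, had 118 and 120 CPM in knockouts and 118 and 129 CPM in controls. The calls in lists of other cell types were all higher, where 0.537% of all genes tested rose. These were, besides the genes of the goblet exclusion, 2 of 3 tested goblet genes (Agr2 and Spink4) and 1 of 1 tested enteroendocrine gene (Sct). Besides Ly6d and Anxa1, which the rule used, 1 of 4 fetal-like genes (Ly6a) was called too. For Agr2, Sct and Ly6a the knockout of mouse 1 lay below its control, so their rise rested on mouse 2 alone. Ly6a had 0 and 97 UMIs in knockouts and 1 and 15 UMIs in controls. The part of such cells in the result was not tested.

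**Figure D5:**
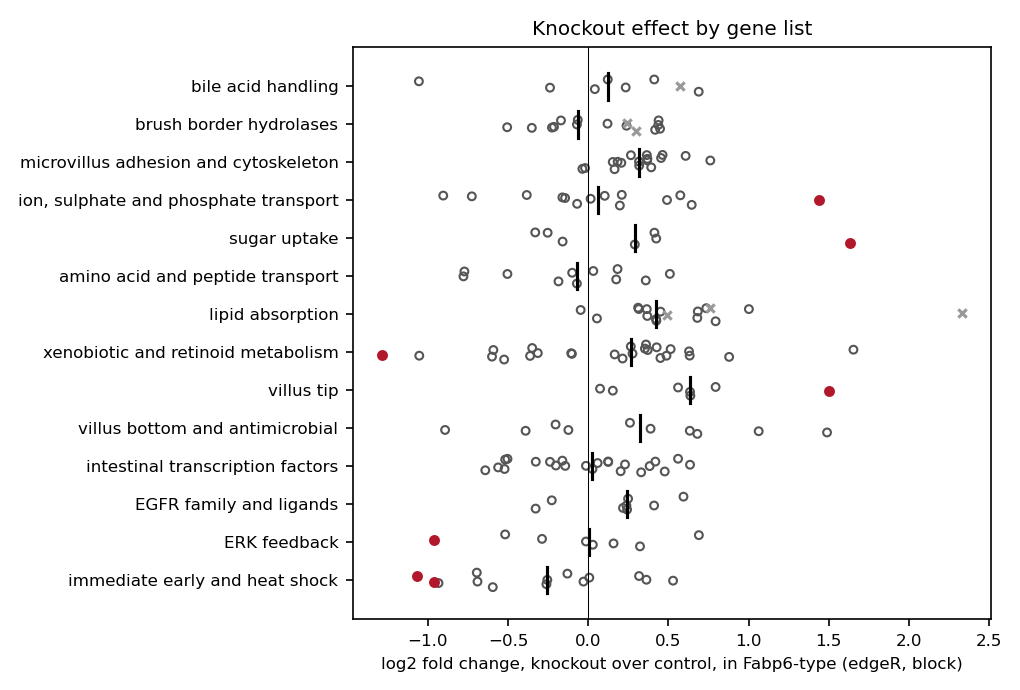
Log2 fold change, knockout over control, in Fabp6-type enterocytes (edgeR with the mouse as a block) for each tested gene of 14 lists, with filled red points for called genes, open circles for genes not called, grey crosses for genes the rule used and black bars for the median of the list without those genes. Most points lie within 1 of 0, and the villus tip and lipid absorption medians, at 0.63 and 0.42, are the highest shown.

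The same comparison in the 485 Fabp1-type cells (124 and 92 in knockouts, 161 and 108 in controls) called 2 genes higher with the group alone (0.0231% of 8659 genes tested) and 188 genes with the block (2.17%), 110 of them higher (1.27%) and 78 lower (0.901%). Both types come from the same libraries and differ in cell number and depth, so their numbers of called genes are not comparable. Side by side, Oasl1 was at 1.96 ± 0.27 in the Fabp6-type and 1.47 ± 0.18 in the Fabp1-type, Egln3 at 1.78 ± 0.25 and 1.36 ± 0.18, Slc16a3 at 2.29 ± 0.33 and 1.51 ± 0.20, and Cyr61 at −2.14 ± 0.35 and −1.41 ± 0.32. For S100g the values were −1.27 ± 0.26 in the Fabp6-type and −0.11 ± 0.17 in the Fabp1-type, and for Slc20a1 they were 1.44 ± 0.33 and 0.42 ± 0.21. Other genes had the larger value in the Fabp1-type: 2610528A11Rik at 2.22 ± 0.39 in the Fabp6-type and 3.62 ± 0.24 in the Fabp1-type, Hk1 at 2.44 ± 0.54 and 3.01 ± 0.47, and Fam162a at 1.46 ± 0.26 and 1.65 ± 0.17. Of the 51 genes called in the Fabp6-type with the block, 29 (56.9%) were also called in the Fabp1-type, where 2.17% of all genes tested were. Of the brush border hydrolases besides Anpep and Sis, 7 of 14 tested genes fell in the Fabp1-type and none of 13 in the Fabp6-type. The difference of the effects was tested itself, with the library as a block, over 8473 genes, and 3 genes (0.0354%) passed. The effect in the Fabp6-type was higher for Acta1 (0.0118%) and lower for Ccl20 and Olfm4 (0.0236%). No difference was thus shown for Oasl1, Egln3, Slc16a3, Cyr61, S100g, Slc20a1, 2610528A11Rik, Hk1, Fam162a or any hydrolase, and 291 genes had an unadjusted p under 0.05.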

How the data were processed

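Per the file headers and the labels, the authors deposited whole-number UMI counts per gene and cell barcode for each library. Cell Ranger 3.0.1 and mm10 are named per the submitters' processing notes, and the file headers name version 3.0.0. The annotation release and the strand setting are not given in the sources used here, so overlapping and antisense genes are uncertain. Of 5602 barcodes, 173 with under 500 detected genes were left out. Doublets were not removed in the main result. As an alternative the highest Scrublet scores (scanpy 1.11.5) at 0.8% per 1000 barcodes were left out (67 cells, 1 of them Fabp6-type), since the automatic threshold marked only 21. A further alternative thinned each cell to 5000 UMIs, which left out 433 and 319 knockout and 190 and 105 control cells.

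Counts were summed per library and type and tested with edgeR 4.0.16 (TMM, filterByExpr, quasi-likelihood, two-sided, Benjamini-Hochberg adjusted p under 0.05), with DESeq2 1.42.0 as an alternative. The planned main fit has the group alone. Numbers 1 and 2 pair the samples because both libraries of a number come from 1 mouse, per the labels' design text and the same tag carried by the deposited files of a number, so the fit with the block is given beside it. Deviations of same-numbered libraries from their group means correlated at 0.0390 over 7628 genes in the Fabp6-type and 0.475 over 8659 genes in the Fabp1-type. The block leaves 1 residual degree of freedom. Scripts were tested on simulated data. Shares were compared by exact permutation, with Clopper-Pearson intervals.

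The genes named were those of the rule and the markers, the 10 largest rises and falls with the block at an average log2 CPM of at least 5 and alike in both mice (6 falls qualified), list members by level or by call, and the largest ratios between types. The other genes named with values among the 51 calls, such as Scd1, Tm4sf4, Gch1, Fam162a and Bnip3, were chosen after their values were seen. The cells, the 30 gene lists and the markers were chosen with earlier results of these data known. Gene coordinates are from GENCODE M21 (GRCm38).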

Additional observations from a re-analysis of the deposited data

Results flagged for a closer look

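For 3 genes the knockout effect differed between Fabp6-type and Fabp1-type enterocytes by the test of the difference itself (edgeR quasi-likelihood test with the library as a block). The difference was −3.87 ± 0.57 on the log2 scale for Ccl20 (adjusted p = 0.0064). Fabp6-type cells had 5.11 and 4.34 CPM in knockouts and 67.9 and 33.2 CPM in controls, and Fabp1-type cells had 39.8 and 22 CPM in knockouts and 17.9 and 18.6 CPM in controls. In control 1, 1 Fabp6-type cell held 84.7% of the Ccl20 UMIs.

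For Acta1, the actin gene of skeletal muscle, the difference was 3.00 ± 0.28 (adjusted p = 1.48e-05). Fabp6-type cells had 69.0 and 559 CPM in knockouts and 38.0 and 328 CPM in controls, and Fabp1-type cells had 19.9 and 225 CPM in knockouts and 113 and 943 CPM in controls. Mouse 2 was higher than mouse 1 in every group, and 1 Fabp6-type cell held 79.4% of the UMIs in knockout 2.

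For Olfm4, a crypt base gene, the difference was −2.49 ± 0.42 (adjusted p = 0.0272). Fabp6-type cells had 40.9 and 16.8 CPM in knockouts and 260 and 2.08 CPM in controls, and Fabp1-type cells had 34.8 and 21.1 CPM in knockouts and 49.2 and 0 CPM in controls. In control 1, 1 Fabp6-type cell held 93.8% of the Olfm4 UMIs. The part of single cells in these differences was not tested. Groups of 2 libraries are too small to look for outlying samples.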

How the results depend on the processing

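Over 467 alternative values of 17 gene effects in the Fabp6-type and 3 differences between types, 1 changed direction: Cyp3a11, at −2.23 to 0.23 with 1 library left out, the 0.23 without control 2. The genes had been chosen by their calls in the same libraries, so a stable direction was largely fixed in advance. Counts of called genes moved with most settings, and the causes were not tested. Counts are given as higher and lower. In the Fabp6-type the fit with the group alone gave 1 and 3, and it gave 53 and 14 with no filter on low counts, 0 and 0 with the gate at 500 CPM, and 41 and 10 with the replicate block. The higher count was 2 with DESeq2 size factors, 4 with DESeq2, 12 without likely doublets, 17 with 10 or more UMIs of the leading Fabp gene and 3 without cells with enteroendocrine markers, the last 2 settings having been chosen after seeing the data. Leaving out 1 library gave 0 to 74 higher and 0 to 28 lower genes, where the lone sample of a group is assumed to vary like the others. With the block, DESeq2 gave 7 and 0, the gate at 2000 CPM 110 and 37, a lead of 2 times the other Fabp gene 16 and 6, and the gate at 500 CPM 69 higher.

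In the Fabp1-type the group alone gave 2 and 0, against 110 and 78 with the replicate block, 19 and 1 with no filter and 8 and 1 with DESeq2. The higher count was 1 with the gate at 500 or 2000 CPM or a lead of 2 times, and 0 without likely doublets, with 10 or more UMIs or without cells with enteroendocrine markers. Leaving out 1 library gave 7 to 47 and 0 to 24. With the block, DESeq2 gave 17 and 3, a lead of 2 times 55 and 38, and 10 or more UMIs 28 and 15.

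The difference between types had 1 and 2 genes, against 11 and 8 with no filter. A lead of 2 times gave 2 higher. The lower count was 0 with DESeq2 or the gate at 500 or 2000 CPM, and 1 with 1000 or more genes, without likely doublets or without cells with enteroendocrine markers. Leaving out 1 library gave 1 to 13 and 0 to 10. The share among kept cells lay between −4.90 and 0.63 points with 1 library left out, reversed without control 2 (0.63), and the share among gated enterocytes between −2.10 and 16 points, reversed without knockout 2 (−2.10). No test with the block was run on shares. The differences within mice 1 and 2 were −1.12 and −3.15 points among kept cells and 1.71 and 12.2 points among gated enterocytes. With the block no library can be left out, since no residual degree of freedom remains. Depth limits genes under about 10 CPM, above all in knockout 1, where 3 UMIs are 7.67 CPM.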
